A study of Mus musculus with 7 samples.

Results

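The genes of MHC class II antigen presentation were read in germinal centre B cells of wild-type (WT) and RRas2-deficient mice. They were the 10 genes H2-Aa, H2-Ab1, H2-Eb1, Cd74, Ciita, H2-DMa, H2-DMb1, H2-DMb2, H2-Oa and H2-Ob, chosen by name from the platform annotation of the array. A probe with 1 gene symbol was found for 9 of them, each with 1 such probe, among 21515 genes so named. Cd74, which encodes the invariant chain, was not analysed here. A further probe that the annotation gives to H2-Oa together with another gene was not used. All 9 measured genes were brighter than the limit for dim genes and were tested.

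The series compared mRNA of germinal centre B cells from the spleens of WT mice (4 arrays) and RRas2-deficient mice (3 arrays). The cells were sorted as B220+CD95+GL7+ 7 days after all animals were immunized through the peritoneum with sheep red blood cells. One label field writes Rras-deficient for the same samples. Strain, H2 haplotype, sex, age, the deleted part of the gene and the cells that carry the deletion are not given in the sources used here. The labels call the samples biological replicates without naming animals, so the spread behind each p is that between samples, which may be partly technical.

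Class II molecules display peptides from endosomes to CD4+ T cells. An alpha and a beta chain pair in the endoplasmic reticulum with the invariant chain, whose remnant is later exchanged for peptide by H2-DM, and H2-DO restrains H2-DM in B cells. In germinal centres, B cells that took up antigen through their receptor compete for T cell help through these molecules. CIITA, a coactivator that does not itself bind DNA, switches on the class II genes through the factors seated on the X and Y boxes of their promoters.

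These boxes are shown for the 6 members with a Y box in the 250 bases before the first gene start listed. X and Y boxes were chosen because CIITA acts through them, and not every member's window held both. RefSeq promoter windows of build GRCm38.p6 were matched by symbol for 7 members, the exceptions being H2-Ab1, Cd74 and Ciita. Each line is 100 bases on the strand of the gene, 5′ to 3′, with capitals for the Y box ATTGG and, where it was found, for TGANG, a core of the downstream end of the X box.
H2-Aa (chr17:34287847-34287946, minus strand): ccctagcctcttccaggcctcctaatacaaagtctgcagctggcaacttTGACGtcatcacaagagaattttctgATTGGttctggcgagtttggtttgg
H2-Eb1 (chr17:34305733-34305832, plus strand): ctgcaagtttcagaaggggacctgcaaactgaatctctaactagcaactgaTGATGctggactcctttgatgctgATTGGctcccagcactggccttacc
H2-DMb1 (chr17:34153055-34153154, plus strand): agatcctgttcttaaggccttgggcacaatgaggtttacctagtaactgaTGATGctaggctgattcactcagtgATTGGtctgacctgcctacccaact
H2-DMb2 (chr17:34145084-34145183, plus strand): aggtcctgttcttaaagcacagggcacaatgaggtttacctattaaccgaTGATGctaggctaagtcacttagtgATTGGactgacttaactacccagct
H2-Ob (chr17:34238773-34238872, plus strand): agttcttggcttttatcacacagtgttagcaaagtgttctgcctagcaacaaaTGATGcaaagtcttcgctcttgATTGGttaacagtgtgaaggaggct
H2-Oa (chr17:34092261-34092360, plus strand): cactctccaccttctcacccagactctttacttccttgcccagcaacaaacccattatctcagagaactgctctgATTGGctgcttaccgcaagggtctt

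The Y box began 43 to 90 bases before the gene start in these 6 windows. In 5 of them TGANG stood before it on the same strand, with 17 bases between in H2-Ob, 19 in H2-Eb1, 20 in H2-DMb1 and H2-DMb2 and 21 in H2-Aa. The spacing searched was 10 to 30 bases, and where TGANG matched more than once within it, the match nearest to the Y box is in capitals. The promoters of H2-DMb1 and H2-DMb2, neighbouring genes for the beta chain of H2-DM, held the same letter at 85 of the 100 positions shown, with no gaps. Of all 32851 promoter windows, 33.8% held ATTGG or its reverse complement CCAAT in their 250 upstream bases. TGANG followed by ATTGG at that spacing was found in 4.09% on either strand and in 2.26% on the strand of the gene. These shares are over all windows, while the 6 shown were picked for their Y box. Both motifs and the spacing were chosen after the class II promoters had been read, and they do not overlap each other. The first of the 2 windows of H2-DMa held no Y box, and the second, at another start and not shown, held one without TGANG at that spacing. A match describes these letters and is no measurement of binding.

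Arrays of both genotypes differed in the spread of their values. The interquartile range, in log2 units, was 2.37 to 2.49 on 3 narrower arrays (WT replicates 1 and 2 and RRas2-deficient replicate 2) and 2.69 to 2.91 on the 4 wider ones. The mean of 11 germinal centre B cell markers ran from 9.24 to 9.38 on the narrower arrays and from 10.13 to 10.53 on the wider ones. The 11 were Cd79a, Cd79b, Ptprc and Ms4a1, which are not particular to germinal centre cells, and Fas, Bcl6, Mybl1, Rgs13, S1pr2, Mki67 and Gcsam. The mean of 5 resting B cell markers ran from 8.22 to 8.71 on the narrower and from 6.99 to 7.51 on the wider arrays. Rras2 read 7.13 to 8.66 on the WT arrays and 6.68 to 7.12 on the deficient arrays, a log2 difference of -0.99 with a limma adjusted p of 1.00. Xist, the RNA of the inactive X chromosome, read 6.61 on WT replicate 3 and 9.43 to 10.29 on the other 6 arrays.

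None of the 9 class II genes differed between genotypes past an adjusted p of 0.05, and 0 had an unadjusted limma p under 0.05. Over all 16136 genes tested, 2 (0.0124%) passed the adjusted threshold and 132 (0.818%) the unadjusted one. Of the 9, 3 had higher and 6 lower means in RRas2-deficient cells, where 51.7% of all genes tested were higher and 48.3% lower. The median log2 difference was -0.06 for the class II genes and 0.00 for all genes tested. The mean log2 intensity over the 9 genes was 9.65 ± 0.15 (SD, n = 4) in WT and 9.59 ± 0.19 (SD, n = 3) in deficient cells. A bulk sample cannot tell fewer cells of a type from less RNA per cell.

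**Figure D1:**
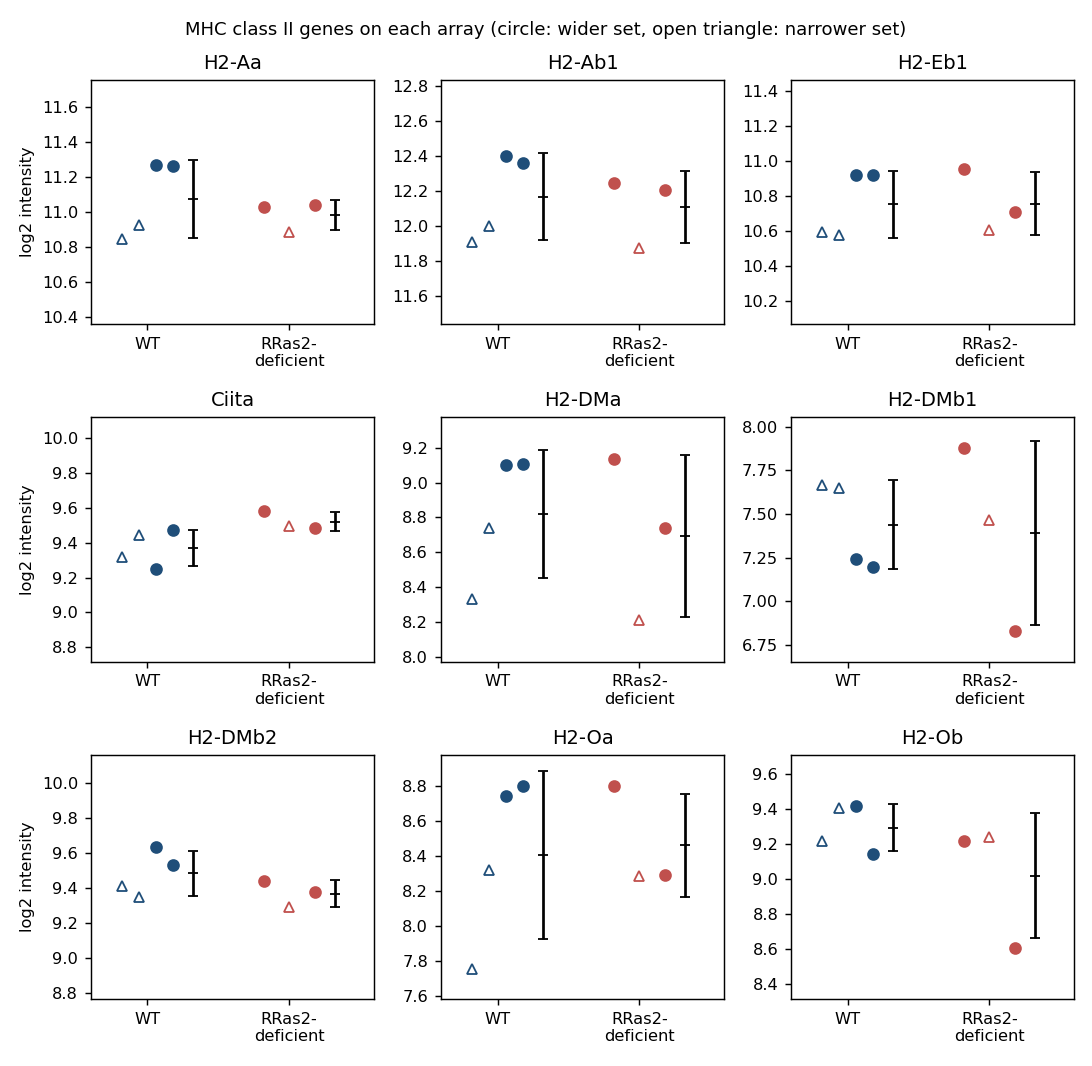
Log2 intensity of the 9 measured class II genes on each array, WT in blue and RRas2-deficient in red, with the mean and SD of each group in black; circles are the 4 arrays of the wider set and open triangles the 3 of the narrower set. Each panel spans the same height on the log2 scale, and the groups overlap in every panel except Ciita, where the lowest deficient array (9.49) lies just above the highest WT array (9.47).

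For the classical chains that hold the peptide, the genotypes differed by less than the pooled SD within genotypes. H2-Ab1, the beta chain of the A molecule, read 11.91, 12.00, 12.40 and 12.36 on the WT arrays, in the order of replicates 1 to 4, and 12.25, 11.87 and 12.21 on deficient arrays 1 to 3. The lowest 3 of these values were those of the narrower arrays, in both genotypes. The log2 difference, deficient minus WT, was -0.06 ± 0.17 (SE, limma adjusted p = 1.00), with a 95% interval from -0.45 to 0.34. H2-Aa, its alpha chain partner, read 10.84, 10.93, 11.27 and 11.26 in WT and 11.03, 10.88 and 11.04 in deficient cells. Both wider WT arrays lay above every deficient array, and both narrower WT arrays lay among or below them. The difference of H2-Aa was -0.09 ± 0.14 (SE, limma adjusted p = 1.00), with an interval from -0.42 to 0.23.

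H2-Eb1, the beta chain of the E molecule, read 10.60, 10.58, 10.92 and 10.92 in WT and 10.95, 10.60 and 10.71 in deficient cells. RRas2-deficient replicate 1 was the highest of the 7, and the mean was 10.75 ± 0.19 (SD, n = 4) in WT and 10.75 ± 0.18 (SD, n = 3) in deficient cells. Its difference was 0.00 ± 0.14 (SE, limma adjusted p = 1.00), with an interval from -0.33 to 0.34. H2-Ea, the alpha chain partner of H2-Eb1, is not transcribed in mice of the b haplotype. Its probe read 3.89 to 4.78 on the 7 arrays, above the limit of 3.48 for dim genes, with a difference of -0.02 ± 0.25 (SE). The median gene of each array read 4.42 to 4.63. H2-Eb2, a second E beta gene, read 8.30, 8.65, 9.10 and 9.20 in WT and 9.10, 8.18 and 8.48 in deficient cells. The overlapping groups of H2-Eb2 differed by -0.22 ± 0.30 (SE, limma adjusted p = 1.00).

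Ciita, the coactivator, was the 1 class II gene whose groups did not overlap. It read 9.32, 9.44, 9.25 and 9.47 in WT and 9.58, 9.49 and 9.49 in deficient cells. The gap between the lowest deficient and the highest WT array was small beside the spread of the WT arrays. Groups without overlap made up 1.08% of all genes tested, 0.719% with the deficient arrays higher and 0.366% with them lower. The means were 9.37 ± 0.10 (SD, n = 4) and 9.52 ± 0.05 (SD, n = 3), a difference of 0.15 ± 0.09 (SE) or 1.11-fold. The limma adjusted p was 1.00 (unadjusted 0.137), and the 95% interval ran from -0.06 to 0.36. By exact permutation of the arrays (two-sided, 35 splits, lowest possible p = 0.0286) p was 0.0857. Ciita differed by 0.11 among the narrower arrays and by 0.17 among the wider ones. It was higher in the deficient cells in all 26 other settings tried, from 0.09 to 0.20, and passed the adjusted threshold in 0 of them. Other filters, probe averaging and another limma prior could not change the difference of Ciita. As its groups did not overlap, leaving out arrays or fitting a block could not turn its direction.

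For the 3 genes of the peptide exchanger H2-DM the genotypes overlapped. H2-DMa, its alpha chain, read 8.33, 8.74, 9.10 and 9.11 in WT and 9.14, 8.21 and 8.74 in deficient cells. Its lowest 2 arrays were 1 WT and 1 deficient array of the narrower set, and the difference was -0.12 ± 0.28 (SE, limma adjusted p = 1.00). Without RRas2-deficient replicate 2 the difference was 0.12. H2-DMb2, one of its beta chains, read 9.41, 9.35, 9.63 and 9.53 in WT and 9.44, 9.29 and 9.37 in deficient cells. The difference of H2-DMb2 was -0.11 ± 0.10 (SE, limma adjusted p = 1.00), close in size to the pooled SD within genotypes of 0.11.

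H2-DMb1, the other beta chain, read 7.67, 7.65, 7.24 and 7.20 in WT and 7.87, 7.47 and 6.83 in deficient cells. The highest and the lowest of the 7 were both deficient arrays of the wider set. The difference of H2-DMb1 was -0.05 ± 0.26 (SE, limma adjusted p = 1.00), with an interval from -0.67 to 0.58. It was 0.23 without RRas2-deficient replicate 3 and -0.29 without RRas2-deficient replicate 1. Both beta genes are near copies of each other, and how far the probes of each also bind transcripts of the other was not tested.

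For the inhibitor H2-DO, 1 deficient array set the difference of the beta chain. H2-Ob, its beta chain, read 9.21, 9.40, 9.42 and 9.14 in WT and 9.21, 9.24 and 8.60 in deficient cells. RRas2-deficient replicate 3 stood below the other 6 arrays, which lay between 9.14 and 9.42. The difference of -0.27 ± 0.18 (SE, limma adjusted p = 1.00) was the largest in size of the 9 genes, with an interval from -0.70 to 0.15 and a two-sided exact permutation p of 0.257. Without RRas2-deficient replicate 3 it was -0.07. On that array the mean of 12 macrophage and monocyte markers was 5.02, against 4.37 to 4.88 on the other 6. The markers ranged from 4.37 to 4.76 over the WT arrays and from 4.45 to 5.02 over the deficient arrays, and their part in the result was not tested. H2-Oa, the alpha chain of H2-DO, read 7.76, 8.32, 8.75 and 8.80 in WT and 8.80, 8.29 and 8.29 in deficient cells. WT replicate 1 was the lowest of these, and the difference of H2-Oa was 0.05 ± 0.28 (SE, limma adjusted p = 1.00).

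**Figure D2:**
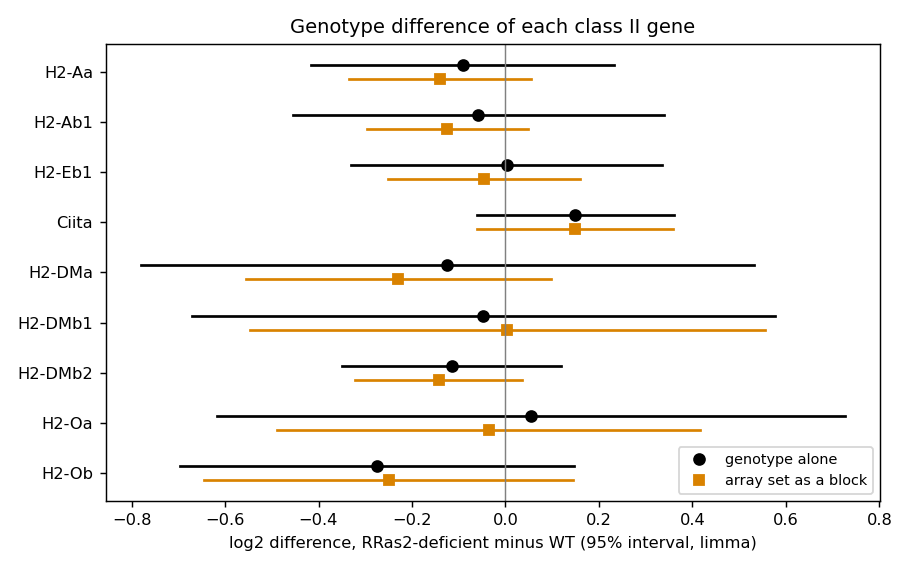
Log2 difference between RRas2-deficient and WT arrays for the 9 measured class II genes, with 95% intervals from limma; black circles are the comparison of genotypes alone and orange squares the same with the array set as a block. Every interval holds 0 in both models, and for each gene the blocked interval is the narrower of the pair, by the least for Ciita.

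With the array set as a block, 7 of the 9 class II genes had lower means in the deficient cells, where 50.9% of all genes tested were lower. The median difference of the 9 was -0.12, against 0.00 for all genes tested. In the same model the 11 germinal centre B cell markers all had lower means in the deficient cells (median -0.16) and the 5 resting B cell markers all had higher means (median 0.23), with 0 past the adjusted threshold. Without the block 7 of those 11 were lower (median -0.06) and 3 of those 5 (median -0.01). The part of these markers in the class II differences was not tested. The blocked differences were -0.14 ± 0.08 (SE) for H2-Aa, -0.12 ± 0.07 for H2-Ab1, -0.23 ± 0.14 for H2-DMa and -0.14 ± 0.08 for H2-DMb2. In this model 0 of 9 class II genes had an unadjusted limma p under 0.05, which 10.1% of all genes tested had, and their limma adjusted p ran from 0.581 to 0.998. The array set was read from the spread of the values themselves and is not a batch that the labels name.

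The class II genes differed among themselves in how steady they were from array to array. The pooled SD within genotypes was 0.09 for Ciita, 0.11 for H2-DMb2, 0.18 for H2-Aa, 0.19 for H2-Eb1, 0.23 for H2-Ab1, 0.25 for H2-Ob, 0.39 for H2-DMb1, 0.41 for H2-DMa and 0.42 for H2-Oa, on the log2 scale. The median over all genes tested was 0.21. Part of that spread followed the array sets. H2-DMa had a mean of 9.02 on the wider and 8.43 on the narrower arrays, and H2-Oa 8.66 and 8.12. The sets met at 8.74 for H2-DMa and overlapped for H2-Oa. H2-Ab1, H2-Eb1 and H2-Aa were 0.38, 0.28 and 0.27 higher on the wider arrays, with no overlap of the sets. Such a pattern was found in 26.9% of all genes tested, so 3 of 9 is near the background. Ciita differed by 0.03 between the sets. H2-DMb1 and H2-Ob ran the other way, by -0.31 and -0.19, with overlap.

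**Figure D3:**
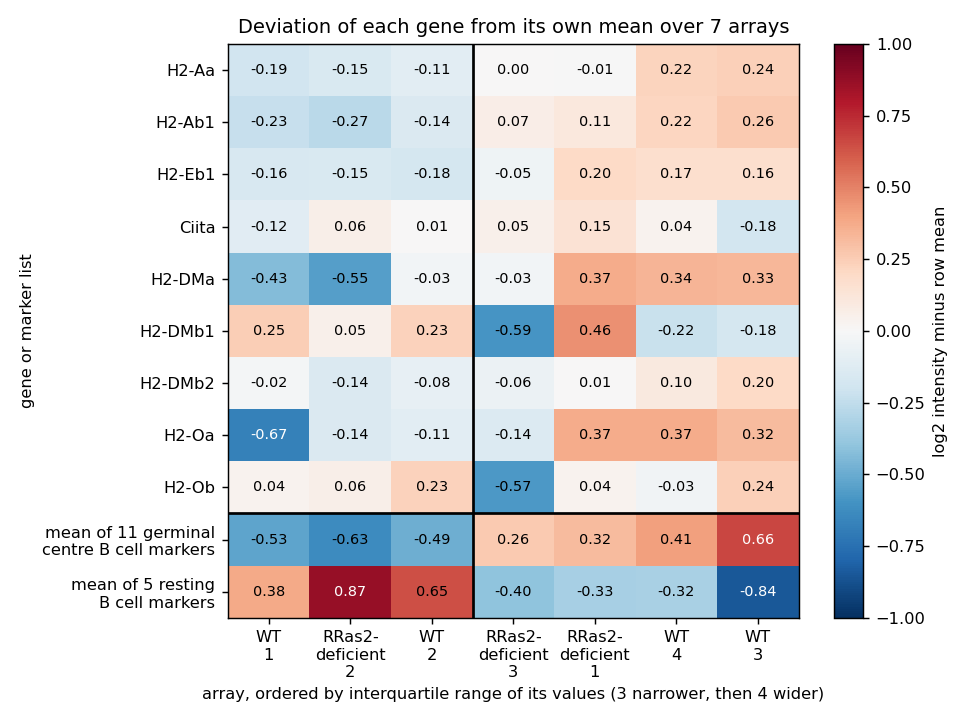
Deviation of each class II gene from its own mean over 7 arrays, in log2 units, with the arrays ordered by the interquartile range of their values; a vertical line parts the 3 narrower from the 4 wider arrays, and the lowest 2 rows are the mean of 11 germinal centre and of 5 resting B cell markers. H2-Aa, H2-Ab1 and H2-Eb1 lie below their mean on all 3 narrower arrays, the resting B cell markers above theirs, and the deepest blue cells of the class II genes are H2-Oa on WT replicate 1 (-0.67), H2-DMb1 (-0.59) and H2-Ob (-0.57) on RRas2-deficient replicate 3 and H2-DMa on RRas2-deficient replicate 2 (-0.55).

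The genes whose profiles lay nearest to that of the class II chains include some of other functions. Likeness was the root mean square distance over the 7 arrays from the centred mean of H2-Aa, H2-Ab1 and H2-Eb1. The nearest of the 16136 genes outside the group were D8Ertd738e (0.036), Gm8702 (0.036), Crtc3 (0.040), a coactivator of CREB, Fbxo42 (0.041) and Fasn (0.043), the fatty acid synthase. Gm8702 was near the limit for dim genes, at 3.29 to 3.74. H2-DMb2 stood at a distance of 0.092 (rank 200), Ciita at 0.20 (rank 4763) and H2-DMb1, the farthest of the class II genes, at 0.42 (rank 14024). All of these profiles come from the same 7 arrays. The nearest genes were picked as the smallest of 16136 distances, so their nearness is set by that choice.

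Proteases and other genes of endosomal processing, which prepare peptides and trim the invariant chain, showed no gene past the threshold. Of 22 listed genes 20 were tested, 9 with higher and 11 with lower means and a median log2 difference of -0.03. Those of lowest p were Cd9, a tetraspanin (-0.15 ± 0.13, log2 difference ± SE), and the cathepsins Ctsc (-0.24 ± 0.30), Ctsd (0.13 ± 0.19) and Ctsa (-0.12 ± 0.18). Ctss, the cathepsin that degrades the invariant chain, read 8.53, 8.59, 9.25 and 9.19 in WT and 9.04, 8.56 and 9.13 in deficient cells. Its 3 narrower arrays were the lowest, and the difference of Ctss was 0.02 ± 0.24 (SE). Lgmn, the asparagine endopeptidase, differed by 0.16 ± 0.30, Ifi30, the lysosomal thiol reductase GILT, by 0.01 ± 0.32, and Sppl2a, the protease that removes the last membrane stub of the invariant chain, by -0.14 ± 0.44. Marchf1, the ubiquitin ligase that sends class II molecules to lysosomes, differed by -0.04 ± 0.10, and Cd83, which opposes it, by 0.03 ± 0.14.

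Factors that act on class II promoters and on Ciita likewise showed 0 genes past the threshold. Of the 11 tested genes for promoter factors and their partners, 8 had higher and 3 lower means, with a median of 0.03. Kat2b, an acetyltransferase, differed by 0.20 ± 0.12, the Y box factor gene Nfya by -0.19 ± 0.13, the X box factor gene Rfxap by 0.19 ± 0.19 and Creb1 by 0.09 ± 0.14. Of the 14 tested regulators of Ciita, 6 had higher and 8 lower means, with a median of -0.03. Socs1, a brake on cytokine signalling, differed by 0.12 ± 0.08, the B cell identity factor gene Pax5 by 0.15 ± 0.10 and Prdm1, which shuts Ciita off in plasma cells, by -0.27 ± 0.19. Irf4 had the largest difference in size of that list at -0.48 ± 0.43, and its limma adjusted p was 1.00.

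Class I presentation, which shows peptides from the cytosol to CD8+ T cells, and the molecules of the contact with T cells also held 0 genes past the threshold. Of 15 tested class I genes 8 had higher and 7 lower means, with a median of 0.03. H2-M3 differed by -0.13 ± 0.11, the peptide loading gene Tapbp by 0.16 ± 0.19, the class I coactivator gene Nlrc5 by 0.17 ± 0.24 and the peptide transporter gene Tap1 by 0.17 ± 0.25. Of 10 contact molecule genes 4 had higher and 6 lower means, with a median of -0.06. The adhesion gene Icam1 differed by -0.21 ± 0.14, Cd40, the receptor of T cell help, by -0.16 ± 0.19, Cd44 by -0.11 ± 0.15 and Slamf1 by -0.19 ± 0.32.

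**Figure D4:**
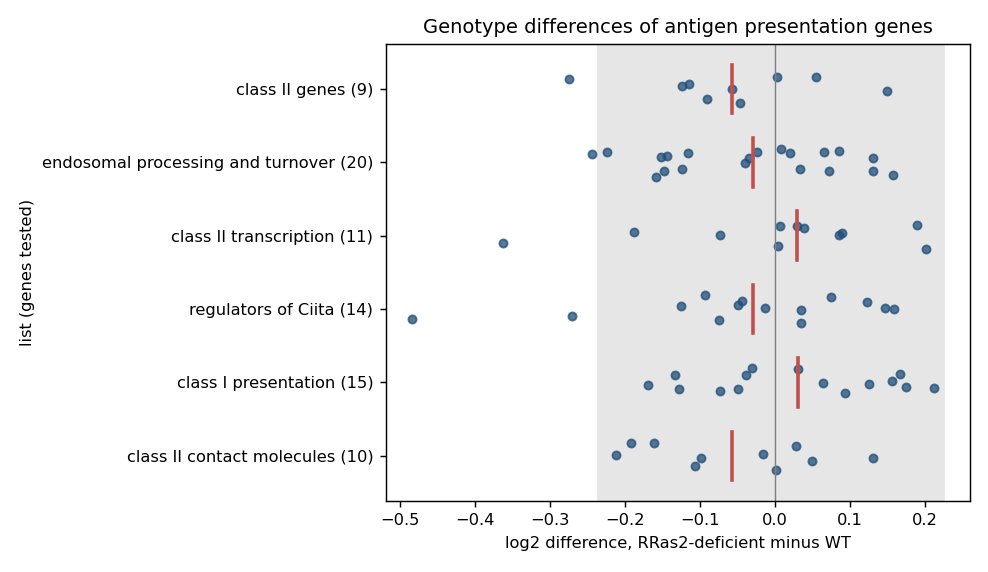
Log2 difference between RRas2-deficient and WT arrays for the 9 class II genes and the 70 tested genes of 5 other lists of antigen presentation, one point per gene, with the median of each list as a red line. The grey band runs from the 5th to the 95th percentile of all genes tested (-0.24 to 0.23) and holds 8 of the 9 class II genes and 66 of the other 70.

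Other cells that carry class II were read through their own markers. The mean of 9 dendritic cell markers was 3.99 to 4.10 in WT and 4.09 to 4.12 in deficient cells. Of these, 7 lay above the limit of 3.48 for dim genes and were tested, and 0 passed. The mean of each of the 7 was higher in the deficient cells (median difference 0.04). Apart from Flt3 these markers were dim, with means over the 7 arrays from 3.56 (Cd209a) to 4.52 (Zbtb46). The median gene of each array read 4.42 to 4.63. Flt3, which early lymphoid cells also carry, had the largest difference, at 0.63 ± 0.40 (SE, limma adjusted p = 1.00). Itgax, the gene of CD11c, read 3.67 to 4.18 on the 7 arrays, and the macrophage gene Adgre1 read 3.69 to 4.17. Among 11 tested macrophage and monocyte markers 0 passed and 10 were higher in the mean of the deficient cells (median difference 0.16). The 6 plasma cell markers, of a cell type that shuts class II off, all had lower means in the deficient cells with 0 past the threshold, and their median was -0.22. Of these, Prdm1 and Irf4 were also counted among the regulators of Ciita. The 6 did not move together between the array sets. Wider minus narrower arrays, Jchain differed by 1.62 and Xbp1 by 0.97, but Irf4 by -1.01, Tnfrsf17 by -0.21, Prdm1 by -0.19 and Sdc1 by -0.12. The mean of 8 T cell markers ran from 3.85 to 4.54 in WT and from 3.85 to 4.05 in deficient cells. The part of these markers in the class II levels was not tested.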

How the data were processed

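The values deposited by the authors are log2 intensities, 1 per transcript cluster of an Affymetrix array, and the submitters' processing notes name RMA and oligo, without versions. Genome build and library annotation are not given in the sources used here. Each of 7 arrays gave 25349 values, and precision is limited by how few arrays there are. Of the probes, 22225 had 1 gene symbol in the platform annotation, 616 several and 2508 none, and only the first kind was named. Where a gene had several probes, the brightest stood for it. A filter on dim genes took out the 5379 of 21515 whose mean lay under the 25th percentile (3.48).

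RRas2-deficient was compared with WT with limma's lmFit and eBayes (version 3.58.1, R 4.3.3, two-sided), with Benjamini-Hochberg adjustment over 16136 genes and a threshold of 0.05. Errors beside differences are limma's moderated standard errors. The script was tested on simulated data. The narrower and wider arrays were told apart at an interquartile range of 2.59, the middle of the largest gap (0.197). Members, lists and alternatives were chosen with earlier results of these data known. The genes named were the class II genes, up to 4 of lowest p in each list, fixed processing genes and the 5 nearest profiles; marker genes were named after their values were seen. Alternatives were other filters, probe averaging, normalization, centring, prior and array weights (statmod 1.5.0), the replicate number or array set as a block, the interquartile range as covariate, each set alone and leaving out each array.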

Additional observations from a re-analysis of the deposited data

Results flagged for a closer look

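In 82 class II and listed genes, the 4 WT arrays were screened for a reading whose gap to its nearest neighbour, over the whole range, exceeded Dixon's critical value at the 95% level, which chance exceeds in about 1 group in 20. No class II gene was among the 7 found. WT replicate 1 read low for Marchf1 (6.31, nearest 6.47), Cd82 (6.04, nearest 6.22) and Pax5 (9.61, nearest 9.65). WT replicate 2 read high for Psme2 (6.83, nearest 6.23), Usf1 (6.99) and Cd63 (2.95), the last under the limit for dim genes. WT replicate 3 read high for Cd40 (7.29). For Cd63, Usf1 and Cd40 the other 3 WT arrays held identical values, 2.78, 6.82 and 7.17. Any departure from identical values is flagged, so the rate of 1 in 20 does not apply to these genes.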

How the results depend on the processing

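The count of class II genes called, and that of genes called in the other presentation lists, was 0 in all 26 alternatives. An unadjusted limma p under 0.05 was reached by 1 class II gene with array weights and 1 on the wider arrays alone. With the array set as a block it was reached by 2 without RRas2-deficient replicate 1 and by 1 without RRas2-deficient replicate 2. Of all 16136 genes tested, 1263, 1311, 1331 and 1122 reached it in these settings, in that order. The median of the class II genes was -0.06 and ranged from -0.17 to 0.06 over the alternatives, all within 1 SD of the arrays (0.168); leaving out 1 array gave -0.17 to 0.061, the highest without RRas2-deficient replicate 2. Over all genes the 2 calls became 1 with the arrays centred, 5 with array weights, 0 with the replicate block, which also sets aside the unpaired WT replicate 4 (0 without that array and no block), and 0 on the narrower or the wider arrays alone, which hold fewer samples; leaving out 1 array gave 0 to 2. The labels do not say whether the replicate number pairs the samples. Deviations of same-numbered arrays from their group means correlated at -0.59, 0.78 and 0.66 for replicates 1, 2 and 3. This cannot settle the pairing, as arrays of different number were not compared and the WT and deficient arrays numbered 1 lie in different array sets.

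H2-Aa, Ciita, H2-DMb2 and H2-Ob kept their direction in all 26 alternatives. These are not 26 separate checks. The filters, probe averaging and prior leave each difference of these genes unchanged, and several other alternatives repeat one another's values. H2-Eb1 turned with the arrays centred (-0.020), with array weights (-0.060), with the array set as a block (-0.046) and on the wider arrays (-0.087). H2-DMb1 turned with array weights (0.18), the array set as a block (0.0041) and on the wider arrays (0.13), and H2-Oa in the same 3 (-0.17, -0.036 and -0.23). H2-Ab1 turned with the replicate block (0.0059), and to the same value without WT replicate 4 and no block. Leaving out 1 array, with or without the set as a block, gave -0.15 to 0.061 for H2-Ab1, -0.097 to 0.079 for H2-Eb1, -0.34 to 0.12 for H2-DMa, -0.29 to 0.23 for H2-DMb1 and -0.23 to 0.19 for H2-Oa. No turned value passed a test, and the cause was not tested.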
